A study of Mus musculus with 12 samples.

Results

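The genes described here are those whose transcripts were lowest in endotoxin-tolerant macrophages and in no other group of a 12-array study of mouse bone marrow-derived macrophages. For each of 35482 gene names the brightest probe was taken, and the level was the log2 processed spot intensity minus the 75th percentile of its array. A gene was a member if that probe was well above background on all 9 arrays that were not tolerant, if its tolerant mean was at least 1 log2 unit below the mean of each other group, and if its highest tolerant array was below all 9 others. Of 17958 names above background 117 passed the first of these differences and 98 passed both, which is 0.546%, and 14 of those were left out by name (6 starting with chr, 2 with Gpr, 2 with Kif, 1 each with Ccn, Mcm and Slc, and Mrc1). This left 84 members. Since tolerant levels chose them, every tolerant value of a member below is a description without a test.

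The 4 groups had 3 arrays each, and all came from macrophages grown for 7 days in conditioned medium of L929 cells, a fibroblast line that secretes macrophage growth factor, from marrow of female C57BL/6 mice aged 6 to 8 weeks. Tolerant cells met lipopolysaccharide (LPS, a cell wall component of gram-negative bacteria) 2 times, first for 8 h and then, after 16 h without it, for 4 h. Recovered cells differed from them in the interval, which is 88 h in the sample descriptions and 2 to 4 days in the treatment protocol. Acute cells met LPS only for the final 4 h, and untreated cells never did. No genetic change is given for any group. Replicate numbers mark 3 independent experiments, and whether these used separate mice is not stated, so p-values measure the spread between arrays. Untreated cells kept for the longer times, and cells rested without a second exposure, were not analysed here, so effects of either exposure and of a longer culture cannot be told apart.

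Macrophages sense LPS through toll-like receptor 4 and respond with inflammatory genes, and cells that have met LPS once answer a second dose with less of many of them, a state called endotoxin tolerance that fades with rest. Macrophages in culture with growth factor also divide, make amino acids and break down lipids, and they share lysosomal and resorption genes with osteoclasts, the bone-resorbing cells of the same lineage.

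On each array 47.8% to 55.0% of spots exceeded background clearly, and arrays of 1 group correlated at r between 0.980 and 0.994 across genes, which are not independent replicates. All 8 macrophage markers looked at were above background on all 12 arrays. Their summed level on the log2 scale ran from 19.2 to 19.6 in tolerant, 19.3 to 19.7 in recovered, 19.2 to 19.5 in acute and 19.3 to 19.4 in untreated cells. Among markers of other cells, those above background on all tolerant arrays were 3 of 7 neutrophil, 3 of 8 lymphocyte, 5 of 7 dendritic cell, 3 of 8 stromal, 2 of 7 erythroid and platelet, and 1 of 7 mast cell genes on the array. Of the 7 marker lists 0 had a summed level below the other 9 arrays on every tolerant array, but all recovered arrays lay above all untreated arrays for erythroid and platelet, mast cell, stromal and, narrowly, neutrophil markers (12.695 to 12.825 in recovered and 12.072 to 12.67 in untreated cells for the last). The summed level of erythroid and platelet markers, of which 3 were measured, was 13.5 to 14.6 in tolerant, 15.1 to 15.6 in recovered, 13.04 to 14.02 in acute and 12.7 to 13.7 in untreated cells, and Pf4 and Gp9 among them were called in opposite directions in recovered against untreated cells (log2 fold change 2.39 and -4.13). That of 2 mast cell markers was 8.34 to 8.84 in tolerant, 11.3 to 11.5 in recovered, 10.9 to 11.4 in acute and 6.22 to 6.99 in untreated cells, and they were also called in opposite directions, Hdc higher and Kit lower in recovered against untreated cells (7.97 and -2.26). That of 3 stromal markers was 8.66 to 8.86 in tolerant, 8.56 to 9.29 in recovered, 7.51 to 8.72 in acute and 6.05 to 6.86 in untreated cells. Of these 3 Pdgfrb alone was called in recovered and in acute against untreated cells (log2 fold change 6.29 and 4.91). In a fit with the replicate number as a block 3 and 2 of them were called higher there. The part of other cells in the results was not tested. There were 3 slides and 2 scan days, and the slide of the second day held replicate 3 of every group. In such bulk samples fewer cells of a type and less RNA per cell cannot be told apart.

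The distance between the tolerant mean and the nearest other mean, called the gap here, had a median of 1.37 log2 units, or 2.59-fold, and reached 2.74, or 6.66-fold. Of 10 members with a gap of at least 2, 4 were well above background on all 3 tolerant arrays, namely Gm10419, a long noncoding RNA, Mgll, which releases fatty acids from monoacylglycerols, Mamdc2 and Bex1. Bmp2, a growth factor of the transforming growth factor beta (TGF-beta) family, Prkg1 and NAP114398-1 were so on 1 tolerant array, and Adra2c, an adrenergic receptor, Mllt3 and Tgfbr3 on 0, so that the gaps of these 6 rest in part or whole on signal not well above background and give no exact difference. For 42 members the lowest of the other means was that of recovered cells, for 21 that of acute cells and for 21 that of untreated cells. Tolerant replicate 1 was the highest of the 3 tolerant arrays for 51 of 84 members. On all 3 tolerant arrays 69 members were still well above background, and 8 were so on 0 of them. The members just inside the threshold were Ube2c, Gm8096, Foxm1, Fkbp9 and 1190002F15Rik, with gaps of 1.00 to 1.01. Just outside it lay Smagp, Rgs7bp, Kitl, Fut10 and Cpeb3, with gaps of 0.987 to 0.996.

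**Figure D1:**
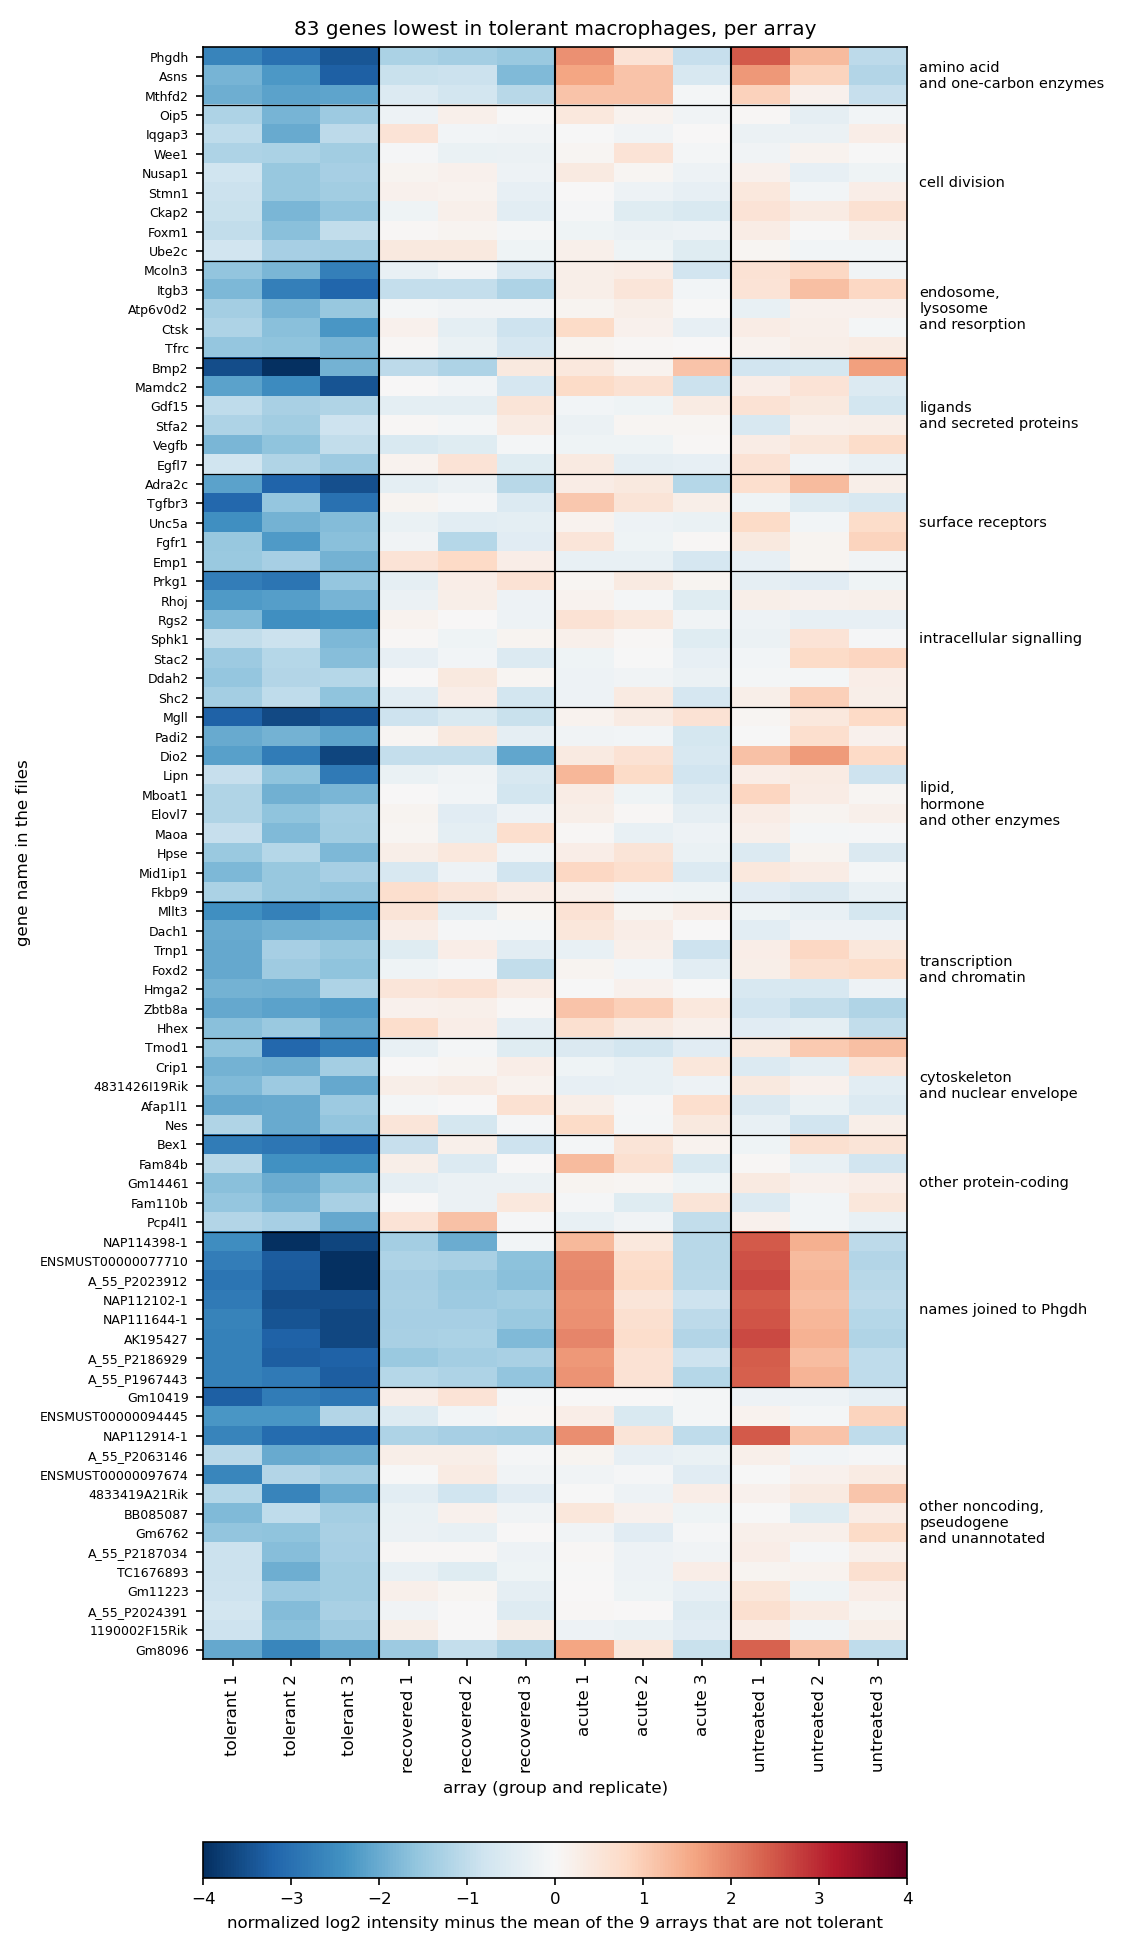
Heat map of 83 of the 84 members (rows, grouped by role) on 12 arrays (columns, tolerant, recovered, acute and untreated from left to right). Colour is the normalized log2 intensity of an array minus the member's mean over the 9 arrays that were not tolerant, and the first 3 columns are blue throughout because the members were chosen for it, while Phgdh and 7 of the 8 names joined to it are also low in the 3 recovered columns and on replicate 3 of acute and untreated cells (NAP114398-1 is not low on recovered replicate 3).

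Further probes of the same genes were not used in the choice, but measured the same RNA. Of the 84 members 24 had more than 1 probe, with 29 other probes in all, and 22 of these were above background on the 9 arrays that were not tolerant. Tolerant cells had the lowest mean in 21 of the 22, 16 had a gap of at least 1, and in 16 the tolerant arrays did not overlap with the others. The exception was 1 of the 3 probes for Fgfr1, a fibroblast growth factor receptor, with means of 8.34 in tolerant, 8.40 in recovered, 8.21 in acute and 8.15 in untreated cells, whereas the probe that made Fgfr1 a member had means of 7.98 ± 0.40, 9.21 ± 0.51, 9.91 ± 0.33 and 10.25 ± 0.40 (SD, n = 3 each). Where the comparisons of the other groups described below called a member by either fit, such a further probe was set beside the call in 26 cases, and its difference had the same direction in 20 and the opposite one in 6, which were those of Itgb3 and Fgfr1 (2 comparisons each), Trnp1 and Rgs2.

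Not every member is a gene of its own. Phgdh, which makes the first enzyme of serine synthesis, and 8 further names were joined by probe sequence or position. These 8 were ENSMUST00000077710, A_55_P2023912, NAP112102-1, NAP111644-1, AK195427, A_55_P2186929, A_55_P1967443 and NAP114398-1. Probes of 3 of them (NAP112102-1, A_55_P2186929 and A_55_P1967443) matched a Phgdh probe over 49 to 58 bases with at least 85% identical bases. The probes of ENSMUST00000077710, A_55_P2023912, NAP111644-1 and AK195427 matched each other in the same way, and that of A_55_P2023912 lies 116 bases from that of A_55_P1967443. NAP114398-1 lies 599 bases from A_55_P2186929. The 2 pairs printed here show how near the matches are. Capitals mark bases that are identical in both probes of a pair, and positions are those of the files on mm9. The probe that made Phgdh a member (chr3:98117215-98117274) and that of A_55_P1967443 (chr14:95820521-95820580) share 48 of 49 overlapping bases.
Phgdh member probe: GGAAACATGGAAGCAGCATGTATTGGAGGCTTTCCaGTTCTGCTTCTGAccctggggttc
A_55_P1967443: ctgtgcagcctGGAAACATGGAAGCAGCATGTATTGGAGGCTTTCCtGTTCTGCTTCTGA
The other Phgdh probe (chr3:98117303-98117361) and that of NAP112102-1 (chr7:48921961-48922020) share 53 of 58.
Phgdh other probe: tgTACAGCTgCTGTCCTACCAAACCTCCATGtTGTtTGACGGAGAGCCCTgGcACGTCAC
NAP112102-1: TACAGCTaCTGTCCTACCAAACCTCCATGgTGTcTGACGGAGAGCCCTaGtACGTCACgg
Whether a Phgdh transcript also binds the probes of the 8 names cannot be told apart from transcripts of those loci, and their values are not independent of Phgdh. Stmn1 and the pseudogene Gm11223 share 53 of 59 overlapping bases in the same way. With 1 name kept for each such set, 75 members remained. Among members with positions, Atp6v0d2 and 4833419A21Rik lie 24.7 kb apart on chromosome 4, Oip5 and Nusap1 39.2 kb apart on chromosome 2, and Nes and Iqgap3 140.5 kb apart on chromosome 3.

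The groups that did not choose the members were then compared with limma, a linear model over all 20479 genes that passed the background filter, with calls made where the p adjusted by Benjamini-Hochberg was under 0.05. In acute against untreated cells 8 of 84 members were called, against 29.3% of all genes, 5 of them higher (14.3% of all genes were) and 3 lower (15.0%). Their median log2 fold change was -0.24, and that of all genes 0.02. Zbtb8a, a zinc finger protein gene, and Hhex, a homeobox gene of blood cell development, had the largest rises among the 8, and Tmod1, which caps actin filaments, the largest fall. With the replicate number as a block 24 members were called, against 43.5% of all genes, 11 higher (21.2% of all genes were) and 13 lower (22.3%). The 16 called with the block alone were Fkbp9, Hmga2, Hpse, Nes, Rgs2 and Tgfbr3 (higher) and 1190002F15Rik, Adra2c, Dio2, Mboat1, Mcoln3, Padi2, Shc2, Stac2, Trnp1 and Vegfb (lower). All 8 calls had the same direction on each of the 3 slides. Those of Zbtb8a and Tmod1 held without any 1 of the 12 arrays, that of Hhex was lost without untreated replicate 3 or acute replicate 1 (highest adjusted p = 0.0568), that of Gm6762 without untreated replicate 3, acute replicate 1 or acute replicate 2 (0.119), and those of Dach1, Ckap2, Afap1l1 and Mllt3 each when 1 of 4, 4, 7 and 8 single arrays was left out (highest adjusted p = 0.1, 0.08, 0.143 and 0.137 in limma).

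In recovered against untreated cells 23 members were called, against 35.4% of all genes, 7 higher (18.5% of all genes) and 16 lower (16.9%). The median of the members was -0.27 and that of all genes 0.06. The 16 lower members were Dio2, NAP112102-1, A_55_P2186929, Phgdh, Itgb3, Mgll, Tmod1, 4833419A21Rik, Fgfr1, Foxd2, Vegfb, Stac2, Unc5a, Gm6762, Gm14461 and Tfrc, and 3 of these names share probe sequence, so that 14 stood for different genes. Among the 7 higher members were Zbtb8a, Hmga2, Fkbp9, Hhex, Emp1 and Gm10419. With the replicate block 47 members were called, against 52.6% of all genes, 10 higher (27.7% of all genes were) and 37 lower (24.9%). The 37 included Phgdh and the 8 names joined to it, which are not independent of each other. The 24 called with the block alone were Afap1l1, Hpse and Pcp4l1 (higher) and AK195427, A_55_P1967443, A_55_P2023912, A_55_P2024391, Adra2c, Asns, Bex1, Ckap2, Ctsk, ENSMUST00000077710, Gm8096, Mboat1, Mcoln3, Mid1ip1, Mthfd2, NAP111644-1, NAP112914-1, NAP114398-1, Shc2, TC1676893 and Trnp1 (lower). All 23 calls had the same direction on both slides that held the 2 groups. Those of Mgll, Dio2, Itgb3, Hmga2, Zbtb8a and Fkbp9 held without any 1 array, those of Gm14461 and Vegfb were lost without recovered replicate 1 (highest adjusted p = 0.0509 and 0.05), and each of the other 15 was lost when 1 of 2 to 9 single arrays was left out (limma).

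In recovered against acute cells 2 members were called, against 2.05% of all genes. These were Emp1, a membrane protein gene, which was higher (1.47% of all genes), and Mgll, which was lower (0.581%). The median of the members was -0.20, and that of all genes 0.04. With the replicate block 15 members were called, against 2200 of all 20479 genes, 4 higher (5.99% of all genes were) and 11 lower (4.75%). The 13 called with the block alone included Fkbp9 and Pcp4l1 (higher) and A_55_P2023912, Asns, Bmp2, Ctsk, Dio2, ENSMUST00000077710, Fgfr1, Itgb3, Mthfd2 and Zbtb8a (lower). The call of Mgll was lost without acute replicate 1 or 2 or any recovered array (highest adjusted p = 0.103), and that of Emp1 held only without untreated replicate 1 or 3 or tolerant replicate 3 (0.142 in limma). The 3 comparisons share arrays. In none of them were 57 of 84 members called, as against 12292 of all 20479 genes.

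**Figure D2:**
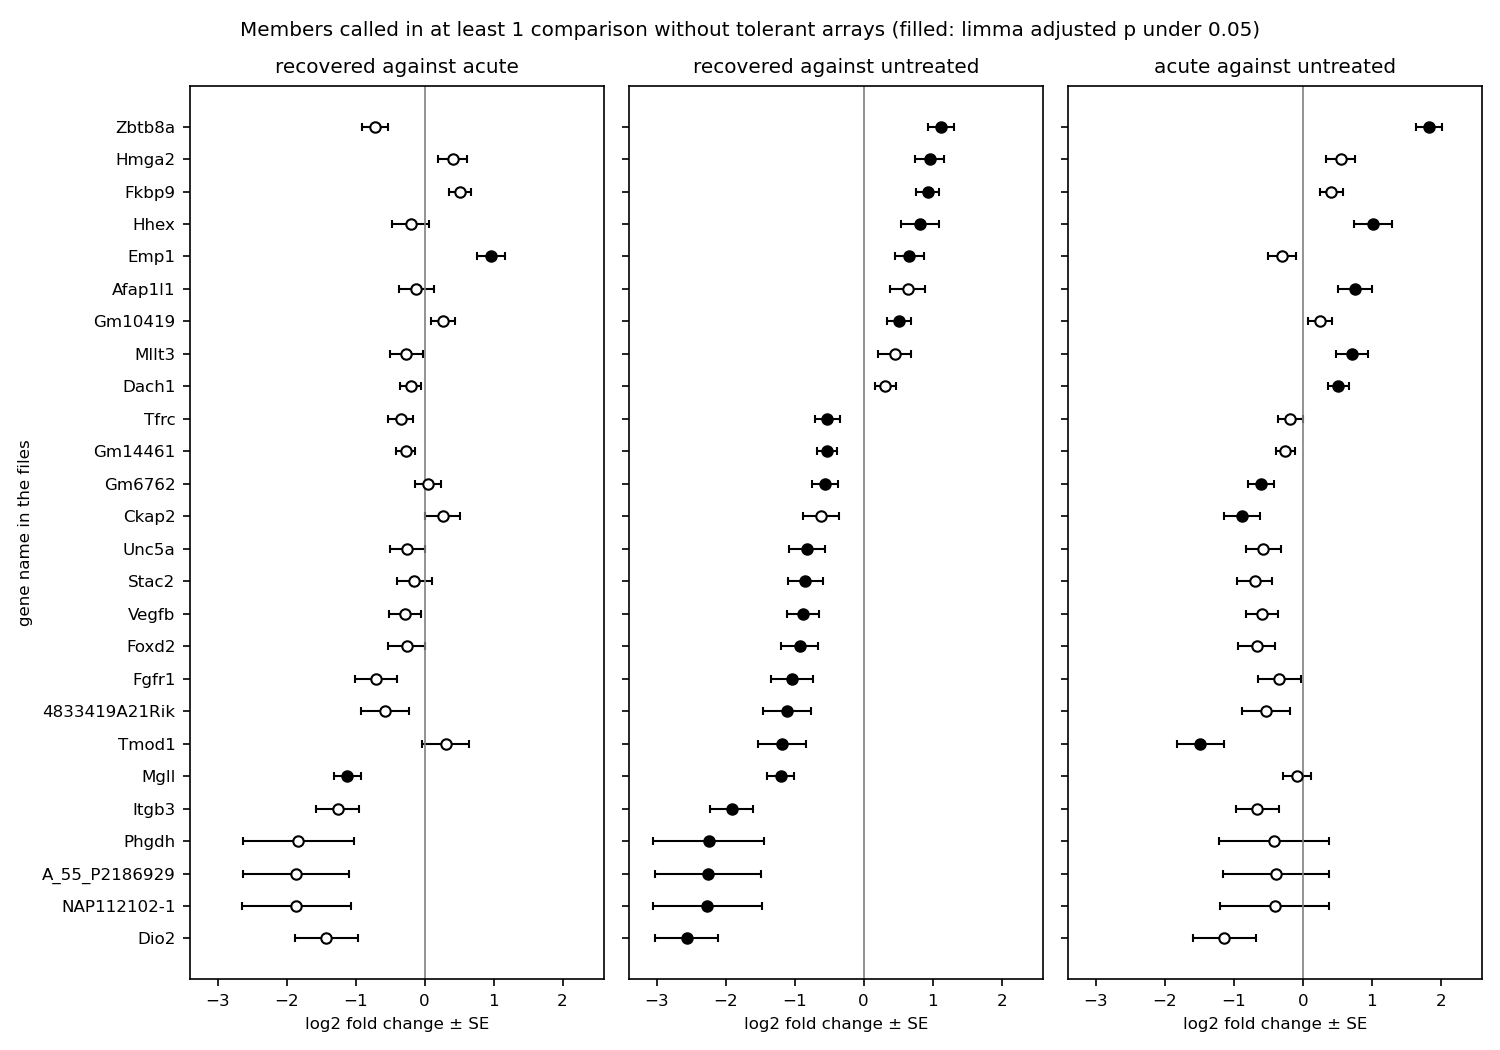
Log2 fold changes (points, with standard error bars) of 26 of the 27 members called in at least 1 comparison without tolerant arrays, for recovered against acute, recovered against untreated and acute against untreated cells. Filled points passed an adjusted p under 0.05 in limma; in recovered against untreated cells 6 filled points lie right of 0 and 16 left of it.

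Enzymes of amino acid and one-carbon metabolism were lowest in tolerant cells and next lowest in recovered cells. Phgdh had 7.36, 7.00 and 6.58 in tolerant cells, 8.73, 8.65 and 8.52 in recovered cells, 11.81, 10.53 and 9.06 in acute cells, and 12.44, 11.27 and 8.94 in untreated cells, as normalized log2 intensities of replicates 1, 2 and 3 (here and below). The 3 recovered arrays lay below all acute and untreated arrays, and replicate 3 of acute and of untreated cells lay below replicates 1 and 2. In recovered against untreated cells Phgdh was called lower (log2 fold change -2.25, SE 0.80, adjusted p = 0.0487). Recovered minus untreated was -3.71, -2.62 and -0.41 in experiments 1, 2 and 3. Its call was lost when any 1 of 9 arrays was left out and held without acute replicate 1, acute replicate 3 or untreated replicate 3 (highest adjusted p = 0.193 in limma).

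Asns, which makes asparagine, had 11.61, 11.17 and 10.18 in tolerant cells, 12.57, 12.58 and 11.69 in recovered cells, 15.05, 14.59 and 12.81 in acute cells, and 15.21, 14.34 and 12.29 in untreated cells. Recovered replicates 1 and 2 lay above untreated replicate 3, so these groups overlapped, and all recovered arrays lay below all acute arrays. Its difference between recovered and untreated cells was not called (log2 fold change -1.66, SE 0.74, adjusted p = 0.105), but was with the replicate block (adjusted p = 0.00171 in limma), and was -2.64, -1.76 and -0.60 in the 3 experiments. Against acute cells it was called with the block as well (adjusted p = 0.00817, without it -1.87, adjusted p = 0.274). Mthfd2, an enzyme of mitochondrial folate metabolism, had 9.77, 9.60 and 9.62 in tolerant cells, 11.17, 11.01 and 10.61 in recovered cells, 12.88, 12.87 and 11.64 in acute cells, and 12.67, 11.91 and 10.81 in untreated cells. Recovered and untreated arrays overlapped, while every recovered array lay below every acute array. It was called lower in recovered cells with the replicate block, against untreated (adjusted p = 0.0289) and against acute cells (adjusted p = 0.0117), and not without it (-0.87, adjusted p = 0.148, and -1.53, adjusted p = 0.108 in limma). Between acute and untreated cells 0 of the 3 enzymes were called, with either fit.

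The 8 names joined to Phgdh had gaps of 1.62 to 2.26, and log2 fold changes of -2.44 to -2.08 in recovered against untreated cells, where 2 were called, NAP112102-1 (-2.27, adjusted p = 0.0442) and A_55_P2186929 (-2.26, adjusted p = 0.0395 in limma), and all 8 with the replicate block. Gm8096, a transcribed pseudogene, and NAP112914-1, for which no probe sequence shared with Phgdh was found, had log2 fold changes of -2.06 and -2.17 there, called with the block alone. Both were also low on replicate 3 of acute and untreated cells.

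**Figure D3:**
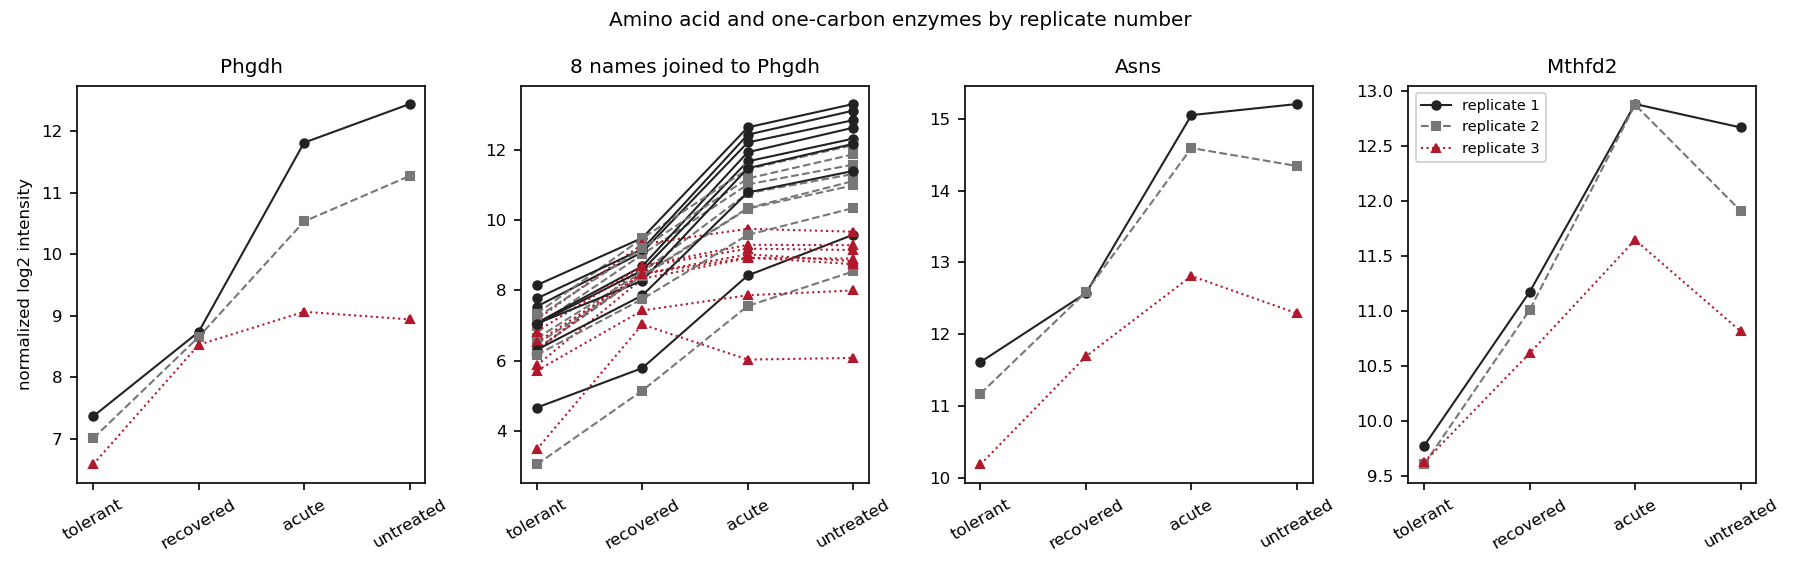
Normalized log2 intensity of Phgdh, the 8 names joined to it, Asns and Mthfd2 in tolerant, recovered, acute and untreated cells, with a line for each replicate number. Replicates 1 and 2 of Phgdh lie at 10.53 or higher in acute and untreated cells and replicate 3 at 9.06 and 8.94, while in tolerant cells the 3 replicates lie between 6.58 and 7.36.

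Phgdh, Asns and Mthfd2 are targets of ATF4, the transcription factor of the response to amino acid shortage, and 19 such targets were measured, these 3 among them. In recovered against untreated cells 13 of 19 were lower (68.4%, against 16.9% of all genes) and 0 higher, with a list median of -1.34 against 0.06 for all genes. The fall was large for Chac1, which degrades glutathione (log2 fold change -5.76, adjusted p = 0.00191), and Trib3, a pseudokinase of the stress response (-5.57, adjusted p = 0.0022 in limma). In acute against untreated cells 3 were lower, Ddit4, Ddit3 and Pck2 (15.8%, against 15.0% of all genes). There 2 were higher, Nupr1 and Atf3 (10.5%, against 14.3%), and the list median was -0.41. With the replicate block 5 were lower and 2 higher (26.3% and 10.5%, against 22.3% and 21.2% of all genes). In recovered against acute cells 2 were lower, Chac1 and Atf3 (10.5%, against 0.581% of all genes), and 9 with the replicate block (47.4%, against 4.75%). In tolerant cells 10 were lower against untreated and 8 lower and 1 higher against acute cells (15, and 13 and 2, with the replicate block), with medians of -1.53 and -1.48. Against recovered cells 1 was lower in tolerant cells, and 6 with the replicate block, with a median of -0.25. With the block 78.9%, 68.4% and 31.6% of the list were lower in tolerant against untreated, acute and recovered cells. Of all genes 18.7%, 22.9% and 25.2% were lower with it. The tolerant comparisons chose 3 of the list and are given as a description, against 8.63%, 10.6% and 11.0% of all genes lower in tolerant against untreated, acute and recovered cells (19.9%, 22.6% and 20.6% either way, and 11.3% and 9.58% higher against untreated and recovered cells).

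The upstream window of Asns is printed because a letter pattern of ATF4-bound elements stands in it. The 250 bases before the annotated start (RefSeq, GRCm38.p6, chr6:7693210-7693459, minus strand, 5′ to 3′) hold TGATGNAA once, in capitals, at bases -23 to -16 from the start.
Asns upstream: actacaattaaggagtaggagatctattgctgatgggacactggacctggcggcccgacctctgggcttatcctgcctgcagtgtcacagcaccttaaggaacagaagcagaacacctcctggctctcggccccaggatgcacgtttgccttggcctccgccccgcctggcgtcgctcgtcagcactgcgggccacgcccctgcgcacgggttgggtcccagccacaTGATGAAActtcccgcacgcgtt
Of the 84 members 67 matched a reference gene and 50 had a promoter window in the RefSeq table, 62 windows in all, each reaching from 250 bases before a start to 50 bases after it. TGATGNAA, searched on both strands, was in 1 of the 62 windows, and in 3.97% of all 32851. TCATGTG, a pattern of sites for MITF and TFE factors, was in 3 (4.84%, against 3.77% of all), and TGANTCA, a pattern of AP-1 sites, in 4 (6.45%, against 7.81%). These patterns were chosen with the members known, and a match or its absence describes letters only.

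Cell division genes made a group of 8 members, of which 0 were called in recovered against untreated cells. Oip5, which helps to load centromere histones, had 6.19, 5.59 and 5.98 in tolerant cells, 7.24, 7.64 and 7.43 in recovered cells, 7.87, 7.57 and 7.30 in acute cells, and 7.49, 7.09 and 7.34 in untreated cells. Nusap1, a spindle protein gene, had 8.21, 7.49 and 7.69 in tolerant cells, 9.13, 9.18 and 8.79 in recovered cells, 9.37, 9.10 and 8.81 in acute cells, and 9.17, 8.69 and 8.83 in untreated cells. Ube2c, which with the anaphase-promoting complex marks cyclins for breakdown, had 9.61, 9.07 and 9.04 in tolerant cells, 10.78, 10.78 and 10.21 in recovered cells, 10.59, 10.22 and 9.92 in acute cells, and 10.47, 10.27 and 10.26 in untreated cells. In each of these the 3 other groups overlapped one another and the tolerant arrays stood below them.

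The other cell division members were Iqgap3, a scaffold protein gene, Wee1, a kinase that holds back entry into mitosis, Stmn1, which destabilises microtubules, Foxm1, a transcription factor of mitotic genes, and Ckap2, a microtubule protein gene. Their gaps ran from 1.01 to 1.30. Log2 fold changes of the 8 in recovered against untreated cells lay between -0.62 and 0.25, and Ckap2 was called lower with the replicate block (adjusted p = 0.0417). In acute against untreated cells Ckap2 was called lower (log2 fold change -0.88, SE 0.26, adjusted p = 0.0236). In recovered against acute cells 0 were called with either fit (log2 fold changes of -0.37 to 0.34).

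Of 46 genes in a list of mitosis and spindle genes 44 were measured, and Nusap1 and Ube2c are the members among them. The names left out by the selection rule include 2 starting with Kif and 1 each with Ccn and Mcm, prefixes of mitotic kinesins, cyclins and replication genes. In recovered against untreated cells 12 of the 44 were lower (27.3%, against 16.9% of all genes) and 2 higher (median -0.37), and in acute against untreated cells 15 were lower (34.1%, against 15.0%) and 2 higher (median -0.58). With the replicate block 20 were lower and 4 higher in recovered (24.9% of all genes were lower) and 26 lower and 3 higher in acute cells (22.3% of all genes). Cdca2 fell in both (log2 fold change -1.58 in recovered and -2.14 in acute cells), and Pttg1 rose in both (1.34 and 1.38). Between recovered and acute cells 0 were called with either fit (median 0.24). The tolerant comparisons, whose low values chose Nusap1 and Ube2c, are a description for this list. There 35 of the 44 were lower and 1 higher against untreated, 17 lower and 1 higher against acute, and 23 lower and 0 higher against recovered cells, with medians of -1.17, -0.68 and -0.84, where 8.63%, 10.6% and 11.0% of all genes were lower. With the replicate block 39, 27 and 33 were lower and 2, 1 and 1 higher. Of all genes 18.7%, 22.9% and 25.2% were then lower, and 18.8%, 21.6% and 19.8% higher. Nusap1 and Ube2c had log2 fold changes of 0.13 and 0.25 in recovered and 0.19 and -0.09 in acute against untreated cells, and neither was called.

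DNA replication genes (44 measured) and DNA repair genes (25 measured) held 0 members. Replication genes had 15 lower (34.1%, against 16.9% of all genes) and 7 higher (15.9%, against 18.5%) in recovered against untreated cells. In acute against untreated cells 16 were lower (36.4%, against 15.0%) and 6 higher (13.6%, against 14.3%). In tolerant cells 19 were lower and 1 higher against untreated cells, 7 lower and 4 higher against acute cells, and 5 lower and 3 higher against recovered cells, and with the replicate block 28 and 2, 9 and 5, and 10 and 7. Repair genes had 13 lower (52.0%) and 2 higher (8.0%) in recovered, and the same counts in acute, against untreated cells. In tolerant cells 14 were lower and 0 higher against untreated, 5 lower and 2 higher against acute, and 2 lower and 2 higher against recovered cells, and with the replicate block 18 and 0, 11 and 5, and 10 and 6. Of all genes 8.63%, 10.6% and 11.0% were lower in tolerant against untreated, acute and recovered cells. With the replicate block 18.7%, 22.9% and 25.2% of all genes were lower there, and 18.8%, 21.6% and 19.8% higher. Against acute and recovered cells the blocked lower shares of replication genes were below those of all genes, and those of repair genes above them.

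The 250 bases before the start of Ube2c (RefSeq, GRCm38.p6, chr2:164769679-164769928, plus strand) are printed because 2 patterns known from promoters of mitotic genes stand in them. CCAAT, in either orientation, occurs 6 times, with 2 of the matches overlapping. TTTGAA occurs once, at -29 to -24 on the strand opposite to the printed one. All matches are in capitals.
Ube2c upstream: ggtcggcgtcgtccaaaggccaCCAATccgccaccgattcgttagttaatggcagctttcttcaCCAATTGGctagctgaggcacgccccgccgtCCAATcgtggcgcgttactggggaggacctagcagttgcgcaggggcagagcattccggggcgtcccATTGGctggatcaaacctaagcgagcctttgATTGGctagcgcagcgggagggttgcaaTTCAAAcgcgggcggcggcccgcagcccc
Over the windows of members CCAAT was in 23 of 62 (37.1%, against 37.4% of all windows) and TTTGAA in 11 (17.7%, against 17.9%). Besides Ube2c, the members Oip5, Ckap2, Gdf15 and 1190002F15Rik had both patterns among their windows.

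Genes of endosomes, lysosomes and bone resorption made a group of 5. Ctsk, a protease with which osteoclasts digest collagen, had 10.27, 9.83 and 9.19 in tolerant cells, 11.68, 11.11 and 10.67 in recovered cells, 12.28, 11.69 and 11.19 in acute cells, and 11.83, 11.73 and 11.45 in untreated cells. Every tolerant array lay below the lowest other array, and the other groups overlapped. Atp6v0d2, a subunit of the proton pump of osteoclasts and macrophages, had 11.17, 10.67 and 11.02 in tolerant cells, 12.46, 12.39 and 12.37 in recovered cells, 12.63, 12.74 and 12.52 in acute cells, and 12.21, 12.68 and 12.68 in untreated cells, so that the 9 other arrays lay between 12.21 and 12.74. Neither gene was called in the 3 comparisons, and Ctsk was called lower in recovered cells with the replicate block (adjusted p = 0.0141 against untreated and 0.0381 against acute cells in limma).

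Itgb3, the beta chain of the integrin through which osteoclasts hold to bone, had 8.80, 7.88 and 7.43 in tolerant cells, 9.65, 9.65 and 9.37 in recovered cells, 10.84, 11.09 and 10.52 in acute cells, and 11.15, 11.83 and 11.43 in untreated cells. Its recovered arrays lay between the tolerant arrays and the acute and untreated arrays without overlap. It fell in recovered against untreated cells (log2 fold change -1.92, SE 0.31, adjusted p = 0.000598), and against acute cells it was called with the replicate block alone (log2 fold change -1.26, adjusted p = 0.0686 without and 0.0211 with it in limma). A second Itgb3 probe, dimmer than the first, did not show these falls, with means of 4.18 in tolerant, 5.58 in recovered, 5.05 in acute and 5.45 in untreated cells. Tfrc, the transferrin receptor that takes up iron, had 10.17, 10.09 and 9.87 in tolerant cells, 11.76, 11.44 and 11.03 in recovered cells, 11.80, 11.74 and 11.73 in acute cells, and 11.83, 11.95 and 12.03 in untreated cells. It was lower in recovered against untreated cells (log2 fold change -0.53, SE 0.18, adjusted p = 0.0404). That call was lost when any 1 of 9 arrays was left out and held without tolerant replicate 3, recovered replicate 1 or acute replicate 3 (highest adjusted p = 0.152 in limma).

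Mcoln3, a cation channel of endosomes, had 8.79, 8.54 and 7.65 in tolerant cells, 10.07, 10.27 and 9.73 in recovered cells, 10.61, 10.66 and 9.59 in acute cells, and 10.96, 11.19 and 10.23 in untreated cells. The acute and recovered arrays overlapped, and its difference between recovered and untreated cells was called with the replicate block (adjusted p = 0.00241) and not without it (-0.77, adjusted p = 0.135 in limma). A second probe of Mcoln3 had means of 7.33 in tolerant, 8.48 in recovered, 8.75 in acute and 9.13 in untreated cells. The member probes lie on mm9 at chr3:95313165-95313224, chr4:19805367-19805426, chr11:104531672-104531731, chr16:32632255-32632314 and chr3:145804285-145804344 for Ctsk, Atp6v0d2, Itgb3, Tfrc and Mcoln3; exons and untranslated regions at these positions were not analysed here.

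Among enzymes of lipids and hormones, Mgll and Dio2 were stepwise lower in recovered and tolerant cells. Mgll had 8.47, 8.08 and 8.26 in tolerant cells, 10.86, 11.10 and 10.82 in recovered cells, 11.85, 12.03 and 12.27 in acute cells, and 11.78, 12.12 and 12.49 in untreated cells. The acute and untreated arrays overlapped, the recovered arrays lay below them and the tolerant arrays a further 6.31-fold below the recovered mean. Mgll fell in recovered against untreated (log2 fold change -1.20, SE 0.20, adjusted p = 0.000666) and against acute cells (log2 fold change -1.12, SE 0.20, adjusted p = 0.0261). Of its 3 other probes 2 were above background in the other groups and had gaps of 2.64 and 2.71.

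Dio2, which turns the thyroid prohormone into its active form, had 8.81, 8.18 and 7.30 in tolerant cells, 10.002, 10.02 and 8.89 in recovered cells, 11.33, 11.54 and 10.32 in acute cells, and 12.15, 12.68 and 11.78 in untreated cells. Within each replicate number the order was tolerant, recovered, acute and untreated, from low to high. Dio2 fell in recovered against untreated cells (log2 fold change -2.57, SE 0.46, adjusted p = 0.00108). In acute against untreated cells (-1.14, adjusted p = 0.0872) and in recovered against acute cells (-1.43, adjusted p = 0.161 in limma) it was called with the replicate block alone (adjusted p = 0.00149 and 0.00444).

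The other enzymes were Padi2, which converts arginine to citrulline in proteins, Lipn, a lipase, Mboat1, a lysophospholipid acyltransferase, Elovl7, which lengthens fatty acids, Maoa, which breaks down amines, Hpse, which cuts heparan sulphate, Mid1ip1, a regulator of fat synthesis, and Fkbp9, a protein folding enzyme. Fkbp9 had 7.55, 7.32 and 7.25 in tolerant cells, 9.50, 9.32 and 9.11 in recovered cells, 9.04, 8.70 and 8.66 in acute cells, and 8.38, 8.24 and 8.53 in untreated cells. It rose in recovered against untreated cells (log2 fold change 0.93, SE 0.17, adjusted p = 0.00109), with no overlap between the groups. The other 7 were called in 0 of the 3 comparisons, with log2 fold changes of -0.86 to 0.53, and with the replicate block Padi2, Mboat1, Hpse and Mid1ip1 were called in at least 1. A second Hpse probe had a gap of 0.15 only, and its tolerant arrays overlapped with the others. Its means were 9.36 in tolerant, 10.08 in recovered, 10.17 in acute and 9.51 in untreated cells. Of 28 lipid and sterol handling genes, a list that holds Mgll, 9 were lower (32.1%, against 16.9% of all genes) and 7 higher (against 18.5%) in recovered, and 1 lower (3.57%, against 15.0%) and 3 higher (against 14.3%) in acute, against untreated cells. With the replicate block 10 were lower (35.7%, against 24.9% of all genes) and 12 higher (42.9%, against 27.7%) in recovered cells. In acute cells 6 were then lower (21.4%, against 22.3%) and 5 higher (17.9%, against 21.2%). Among the 28 genes Scd2, a fatty acid desaturase, fell in recovered cells (log2 fold change -3.56, adjusted p = 0.000694) and Ch25h, which makes an oxysterol, rose (4.87, adjusted p = 0.000227 in limma).

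Secreted proteins and ligands made a group of 7, of which 6 are described. Bmp2 had 3.56, 3.05 and 5.24 in tolerant cells, 6.06, 5.90 and 7.53 in recovered cells, 7.55, 7.26 and 8.27 in acute cells, and 6.35, 6.43 and 8.78 in untreated cells. Replicate 3 was the highest in every group, and 1 of the 3 tolerant arrays was well above background. Bmp2 was called in 0 of the 3 comparisons, and in recovered against acute cells it was lower with the replicate block (log2 fold change -1.19, adjusted p = 0.0251, against -1.19, adjusted p = 0.519 without it in limma).

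Vegfb, a vascular growth factor, had 8.53, 8.73 and 9.37 in tolerant cells, 9.74, 9.86 and 10.28 in recovered cells, 10.16, 10.17 and 10.40 in acute cells, and 10.63, 10.79 and 11.08 in untreated cells. It was lower in recovered against untreated cells (log2 fold change -0.88, SE 0.23, adjusted p = 0.0115), with no overlap between these groups. Mamdc2, Gdf15, a stress-induced member of the TGF-beta family, Stfa2, a cysteine protease inhibitor with close paralogs, and Egfl7 were called in 0 of the 3 comparisons with either fit, with log2 fold changes of -0.44 to 0.20. Mamdc2 had a gap of 2.44, with means of 8.48 ± 0.67 in tolerant, 10.92 ± 0.36 in recovered, 11.36 ± 0.90 in acute and 11.28 ± 0.56 in untreated cells (SD, n = 3 each).

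**Figure D4:**
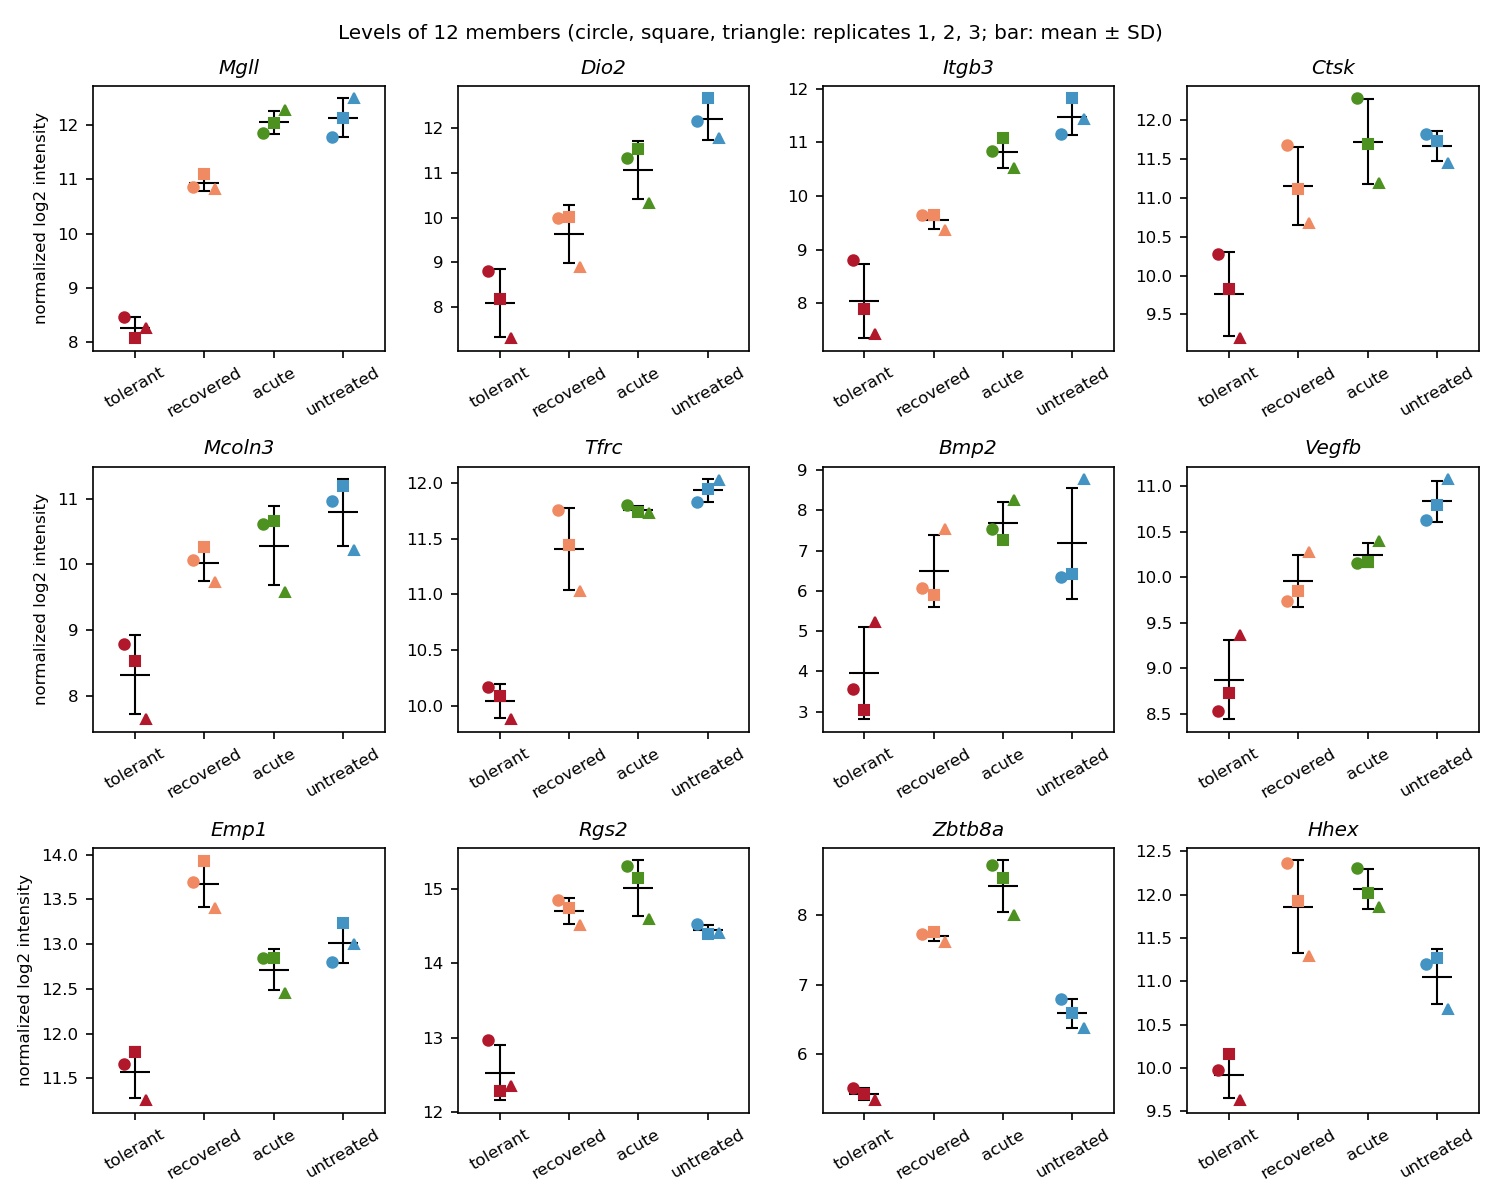
Normalized log2 intensity of 12 members in tolerant, recovered, acute and untreated cells, with a symbol for each replicate and bars for the mean ± SD. Tolerant arrays lie lowest in every panel because the genes were chosen for it. Recovered arrays lie below acute and untreated arrays for Mgll, Dio2 and Itgb3, above them for Emp1, and above untreated and below acute arrays for Zbtb8a.

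Surface receptors among the members were Adra2c, Tgfbr3, Unc5a and Fgfr1, and Emp1, a membrane protein gene, was grouped with them. Adra2c, a receptor for noradrenaline, had 4.38, 3.32 and 2.99 in tolerant cells, 6.15, 6.29 and 5.40 in recovered cells, 6.83, 6.91 and 5.39 in acute cells, and 7.19, 7.80 and 6.75 in untreated cells. It was well above background on 0 of the 3 tolerant arrays, which makes it at least 3.02-fold lower there than in recovered cells. It was called lower in recovered against untreated cells with the replicate block alone (adjusted p = 0.0528 without and 0.00361 with it in limma). Tgfbr3, a coreceptor for TGF-beta, had 2.47, 4.08 and 2.64 in tolerant cells, 5.72, 5.56 and 5.06 in recovered cells, 6.69, 6.14 and 5.84 in acute cells, and 5.43, 5.09 and 4.98 in untreated cells. It too was above background on 0 tolerant arrays, at least 1.76-fold lower than in untreated cells, and acute arrays lay above untreated arrays without overlap. That difference was not called (log2 fold change 1.06, SE 0.39, adjusted p = 0.0619), but was with the replicate block (adjusted p = 0.0322 in limma).

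Emp1 had 11.66, 11.80 and 11.25 in tolerant cells, 13.70, 13.93 and 13.41 in recovered cells, 12.85, 12.85 and 12.45 in acute cells, and 12.80, 13.24 and 13.00 in untreated cells. It was highest in recovered cells, with no overlap, and rose there against untreated (log2 fold change 0.66, SE 0.20, adjusted p = 0.0255) and acute cells (log2 fold change 0.96, SE 0.20, adjusted p = 0.0422). With quantile normalization or the authors' values its call against untreated cells was lost (log2 fold change 0.33 and 0.27). Fgfr1 (log2 fold change -1.04, adjusted p = 0.0211) and Unc5a, a netrin receptor (-0.82, adjusted p = 0.0274), were lower in recovered against untreated cells (limma). Of the 2 other Fgfr1 probes 1 was lower as well, with means of 6.29 in recovered and 7.12 in untreated cells, and 1 was not (8.40 and 8.15). Of 28 growth factor and TGF-beta family receptors and SMAD factors, a list that holds Tgfbr3, 5 were lower (17.9%, against 16.9% of all genes) and 7 higher (against 18.5%) in recovered, and 6 lower (21.4%, against 15.0%) and 7 higher (against 14.3%) in acute, against untreated cells. Pdgfrb, a receptor for platelet-derived growth factor, rose most (6.29 and 4.91), and Smad3, which carries TGF-beta signals, fell in both (-2.80 and -1.64).

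Intracellular signalling genes made a group of 7, of which Rgs2, an inhibitor of G proteins, had 12.96, 12.28 and 12.35 in tolerant cells, 14.86, 14.75 and 14.52 in recovered cells, 15.31, 15.15 and 14.59 in acute cells, and 14.53, 14.39 and 14.41 in untreated cells. Untreated and recovered arrays lay close together, and acute replicates 1 and 2 above them. Its change in acute against untreated cells was called with the replicate block alone (log2 fold change 0.57, adjusted p = 0.0808 without and 0.0133 with it in limma), and a second probe had means of 6.80 in acute and 6.81 in untreated cells. Rhoj, a small GTPase gene, had 7.67, 7.73 and 8.07 in tolerant cells, 9.71, 10.17 and 9.71 in recovered cells, 10.08, 9.86 and 9.45 in acute cells, and 10.15, 10.09 and 10.13 in untreated cells, with no call in the 3 comparisons under either fit. Prkg1, a kinase activated by cyclic GMP, had 3.79, 3.64 and 5.01 in tolerant cells, 6.20, 6.84 and 7.13 in recovered cells, 6.64, 6.91 and 6.69 in acute cells, and 6.19, 6.10 and 6.38 in untreated cells. Recovered arrays overlapped with acute and untreated arrays, every acute array lay above every untreated array, and no comparison of the 3 groups was called.

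Stac2 was lower in recovered against untreated cells (log2 fold change -0.85, SE 0.25, adjusted p = 0.0228). Sphk1, which makes sphingosine 1-phosphate, Ddah2, of a family that breaks down methylated arginine, and Shc2, an adaptor protein gene, were called in 0 of the 3 comparisons, and Shc2 was called lower with the replicate block in acute (adjusted p = 0.00198) and recovered (adjusted p = 0.000507) against untreated cells (limma). Of 22 regulators of G protein signalling, a list that holds Rgs2, 8 were lower (36.4%, against 16.9% of all genes) and 5 higher (22.7%, against 18.5%) in recovered, and 8 lower (36.4%, against 15.0%) and 4 higher (18.2%, against 14.3%) in acute, against untreated cells. Rgs16 rose most (log2 fold change 4.85 and 3.44), and Grk6, a receptor kinase, fell in both (-2.15 and -1.56).

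Transcription and chromatin genes were 7 members, grouped by role with these results known. In acute against untreated cells 4 of them rose, of 5 members in all that did, and with the replicate block 5 of 11. Zbtb8a had 5.51, 5.43 and 5.34 in tolerant cells, 7.73, 7.77 and 7.62 in recovered cells, 8.73, 8.54 and 8.01 in acute cells, and 6.80, 6.60 and 6.38 in untreated cells. The 4 groups did not overlap, and their order from low to high was tolerant, untreated, recovered and acute. It rose in acute (log2 fold change 1.83, SE 0.19, adjusted p = 2.28e-05) and in recovered against untreated cells (log2 fold change 1.12, SE 0.19, adjusted p = 0.000756). Hhex had 9.98, 10.16 and 9.62 in tolerant cells, 12.36, 11.93 and 11.29 in recovered cells, 12.31, 12.03 and 11.86 in acute cells, and 11.20, 11.27 and 10.69 in untreated cells. It rose in acute (log2 fold change 1.02, SE 0.27, adjusted p = 0.0149) and in recovered against untreated cells (log2 fold change 0.81, SE 0.27, adjusted p = 0.0376). Its call in recovered cells was lost without recovered replicate 1, recovered replicate 2, acute replicate 2, untreated replicate 1 or untreated replicate 3 (highest adjusted p = 0.151 in limma).

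Mllt3, a component of a transcription elongation complex, had 4.32, 4.09 and 4.42 in tolerant cells, 7.29, 6.39 and 6.86 in recovered cells, 7.37, 6.90 and 7.06 in acute cells, and 6.60, 6.50 and 6.10 in untreated cells. It was above background on 0 tolerant arrays, at least 4.00-fold lower there than in untreated cells, and rose in acute against untreated cells (log2 fold change 0.71, SE 0.24, adjusted p = 0.0418). Dach1, a transcription cofactor gene, had 7.16, 7.26 and 7.28 in tolerant cells, 9.45, 9.12 and 9.09 in recovered cells, 9.62, 9.43 and 9.21 in acute cells, and 8.76, 8.96 and 8.99 in untreated cells and rose in acute cells as well (log2 fold change 0.52, SE 0.16, adjusted p = 0.0268). Hmga2, which bends DNA in chromatin, had 6.73, 6.71 and 7.41 in tolerant cells, 9.12, 9.21 and 8.93 in recovered cells, 8.60, 8.82 and 8.62 in acute cells, and 7.98, 7.98 and 8.43 in untreated cells. It rose in recovered against untreated cells (log2 fold change 0.96, SE 0.21, adjusted p = 0.00391), with no overlap. Foxd2 was lower in recovered against untreated cells (log2 fold change -0.93, SE 0.27, adjusted p = 0.0195), and Trnp1 was lower with the replicate block alone in acute and recovered cells (log2 fold change -0.83 and -0.73). A second Trnp1 probe had means of 4.62 in tolerant, 5.81 in recovered, 5.32 in acute and 5.67 in untreated cells, so that it was not lower in recovered than in untreated cells. Of 32 myeloid transcription factors, a list without members, 7 were lower (21.9%, against 16.9% of all genes) and 12 higher (37.5%, against 18.5%) in recovered, and 9 lower and 9 higher (28.1% each, against 15.0% and 14.3%) in acute, against untreated cells.

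Genes of the cytoskeleton and nuclear envelope were Tmod1, Crip1, a LIM domain protein gene, 4831426I19Rik (now Syne3, a nuclear envelope protein gene), Afap1l1, an actin-binding protein gene, and Nes, which makes an intermediate filament. Tmod1 had 4.04, 2.49 and 2.92 in tolerant cells, 5.34, 5.55 and 5.16 in recovered cells, 5.06, 4.89 and 5.18 in acute cells, and 6.03, 6.69 and 6.86 in untreated cells. It was above background on 0 tolerant arrays, at least 1.61-fold lower there than in acute cells, and was lower in acute (log2 fold change -1.48, SE 0.35, adjusted p = 0.00693) and recovered cells (log2 fold change -1.18, SE 0.35, adjusted p = 0.0204) than in untreated cells, without overlap. Crip1 had 12.84, 12.78 and 13.36 in tolerant cells, 14.73, 14.81 and 14.98 in recovered cells, 14.56, 14.44 and 15.17 in acute cells, and 14.18, 14.37 and 15.27 in untreated cells, with no call in the 3 comparisons under either fit. Afap1l1 rose in acute against untreated cells (log2 fold change 0.76, SE 0.25, adjusted p = 0.0406).

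The 5 remaining protein-coding members were Bex1, Fam84b (now Lratd2), Gm14461, Fam110b and Pcp4l1. Bex1 had 6.04, 5.94 and 5.71 in tolerant cells, 7.91, 9.03 and 8.01 in recovered cells, 8.77, 9.35 and 8.99 in acute cells, and 8.66, 9.46 and 9.34 in untreated cells, and was lower in recovered against untreated cells with the replicate block alone (adjusted p = 0.0529 without and 0.0113 with it in limma). Gm14461 was lower in recovered against untreated cells (log2 fold change -0.53, SE 0.14, adjusted p = 0.0129). Pcp4l1 was higher in recovered cells with the replicate block alone, against untreated (log2 fold change 0.65, adjusted p = 0.0146) and acute cells (1.03, adjusted p = 0.00992 in limma). Fam84b was above background on 0 tolerant arrays, at least 2.07-fold lower than in untreated cells.

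Beside the names joined to Phgdh, 14 members were noncoding RNAs, pseudogenes or loci without a matched gene. Gm10419 had 4.70, 5.14 and 5.07 in tolerant cells, 8.21, 8.51 and 7.92 in recovered cells, 7.97, 7.99 and 7.89 in acute cells, and 7.74, 7.74 and 7.63 in untreated cells. Its recovered arrays were higher than its untreated arrays (log2 fold change 0.51, SE 0.17, adjusted p = 0.0408). That call was lost when any 1 of 7 arrays was left out and held without tolerant replicate 1, tolerant replicate 2, tolerant replicate 3, recovered replicate 3 or acute replicate 3 (highest adjusted p = 0.154 in limma). The pseudogene Gm6762 was lower in acute (-0.61, adjusted p = 0.0302) and recovered (-0.56, adjusted p = 0.0373) than in untreated cells, and 4833419A21Rik, next to Atp6v0d2, was lower in recovered cells (-1.11, adjusted p = 0.0295 in limma). 1190002F15Rik (now Lockd, a long noncoding RNA) had 7.63, 6.79 and 7.05 in tolerant cells, 8.72, 8.49 and 8.71 in recovered cells, 8.28, 8.20 and 8.03 in acute cells, and 8.77, 8.33 and 8.71 in untreated cells, and was called with the replicate block in acute cells alone (log2 fold change -0.43, adjusted p = 0.0469). Besides Gm8096 and NAP112914-1, 8 names remained, Gm11223, ENSMUST00000094445, ENSMUST00000097674, BB085087, TC1676893, A_55_P2063146, A_55_P2187034 and A_55_P2024391. None of the 8 was called in the 3 comparisons, and TC1676893 and A_55_P2024391 were lower in recovered against untreated cells with the replicate block alone. Of these, 3 were above background on 0 tolerant arrays, ENSMUST00000094445, ENSMUST00000097674 and BB085087, at least 1.76-fold, 1.21-fold and 1.61-fold lower there than in the lowest other group.

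Of lists without members, inflammatory cytokines show how the same arrays carried the LPS response. In recovered cells 18 of 20 measured cytokines rose and in acute cells 19 rose, against untreated cells, with medians of 4.72 and 4.74. In tolerant cells 17 were higher and 1 lower than in untreated cells, and 13 were lower and 2 higher than in acute cells, with medians of 2.70 and -1.56. Of all genes 11.3% were higher and 8.63% lower in tolerant against untreated cells. Against acute cells 10.6% of all genes were lower and 12% higher. Scavenger and pattern receptors (24 measured) had 13 higher (54.2%) and 1 lower (4.17%) in recovered against untreated cells. In acute against untreated cells 10 were higher (41.7%) and 0 lower. With the replicate block these counts were 15 and 2 (62.5% and 8.33%), and 13 and 4 (54.2% and 16.7%). The shares of all genes were then 27.7% higher and 24.9% lower in recovered, and 21.2% and 22.3% in acute, against untreated cells. Receptors for chemoattractants, nucleotides and lipid mediators (30 measured) had 13 higher (43.3%) and 8 lower (26.7%) in recovered against untreated cells. In acute against untreated cells 8 were higher and 8 lower (26.7% each). Of all genes 18.5% were higher and 16.9% lower in recovered, and 14.3% higher and 15.0% lower in acute, against untreated cells.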

How the data were processed

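RNA of 12 macrophage cultures (200 ng each, Cy3, 1 colour) was measured on Agilent arrays. The deposited scanner files hold spot intensity values, background-subtracted by Agilent Feature Extraction 10.7.3.1 per the file headers, with probe positions on mm9. The authors' deposited matrix holds log2 values, and limma is named for it, without a version, per the submitters' processing notes. Its normalization method is not given in the sources used here, and it served as an alternative.

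The log2 processed intensity minus the 75th percentile of its array (8.04 to 9.38) was used, with the mean percentile (8.65) added back. Leaving out control spots and outlier spots (135 to 233 on an array) cost 118 of 55681 probes, and 0 spots were saturated. From the 28044 probes that cleared background throughout some group, the brightest per gene name entered limma 3.58.1 (R 4.3.3, lmFit and eBayes, all 4 groups in 1 fit, residual degrees of freedom 8), leaving 20479 genes, with Benjamini-Hochberg adjustment over all of them for each comparison. The number of arrays limits the precision. Fold bounds for members below background on every tolerant array set the mean of the other group against the lowest signal among probes well above background, or the probe's own where higher.

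Members and gene lists were chosen with earlier results of these data known. The naming rule picked 44 members, and the others are named because every member is accounted for, except 1 member that is counted but not reported here. Same-numbered arrays of different groups deviated together (18 pairs, r of 0.276 to 0.773, median 0.449). The 36 differently numbered pairs had r of -0.653 to 0.337, median -0.368. Deviations were taken from group means, so the r of same-numbered and of other pairs are not independent of each other. Same-numbered arrays also shared a slide, except recovered replicate 1, so experiment and slide largely coincide. The labels tie the numbers to 3 independent experiments, so the numbers were taken to pair the arrays. Fits with the replicate number as a block are given where they change a member's call or move a gene list's count by over 1.5 times. The fit without a block was tested on simulated arrays with independent noise and known changes in the acute group. The selection rule and the fits with a block were not tested in this way. Alternatives were other background corrections, normalizations, filters, gaps, blocks and probe choices, the authors' values, the first scan day alone, and leaving out each array. Sequences are from the scanner files (probes) and RefSeq, GRCm38.p6 (promoters), and 67 members matched a reference gene (62 by accession, 4 by symbol, 1 by synonym).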

Additional observations from a re-analysis of the deposited data

How the results depend on the processing

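Counts of members by the selection rule were 42 with normexp background correction (41 shared with the 84), 47 with the authors' values (43 shared), 274 with a gap of at least 0.5 and 32 with one of at least 1.5, and 82 to 125 with each array left out in turn, the highest without tolerant replicate 1. With the replicate block members called were 24 in acute and 47 in recovered against untreated cells and 15 in recovered against acute cells, where all genes called were 2200, and all genes called in tolerant against untreated, acute and recovered cells were 7683, 9113 and 9229. The block moved 32 of 132 results of the 44 members named by rule past the threshold, and changed no other call of theirs. With the slide as a block the members called were 25, 40 and 12, and the genes 9313 (acute against untreated, 45.5% of all), 10169 (recovered against untreated, 49.7%), 1602 (recovered against acute, 7.82%), and 8080, 9615 and 8233 (tolerant). With the authors' values the members were 24, 45 and 8, and the genes 9314, 11153 and 1203, and 7096, 7679 and 7409. Quantile normalization gave 13 members and 7004 genes (34.2%) in acute against untreated cells, and the first scan day alone 11 members and 579 genes (2.83%) in recovered against acute cells. Without a filter on dim probes the members were 5, 15 and 0, and the genes 5627, 7908 and 99 of 35482. That 0 is from limma, where 17 members had an unadjusted p under 0.05 (20 with the filter, 2 of them called), and no other tool was run. Leaving out 1 array gave 3 to 9 members in acute against untreated cells, 9 (without recovered replicate 1) to 32 in recovered against untreated cells, and 0 to 4 in recovered against acute cells, with 0 without acute replicate 1 or 2 or any recovered array. Genes called were then 5014 to 6010, 5864 to 7541 and 25 (without acute replicate 2) to 448, and in the tolerant comparisons 2911 to 4315, 3124 to 4819 and 2580 to 4508. The cause of these shifts was not tested.

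No called change of a named member reversed under any alternative run. Beside the arrays named above, calls ended for Mllt3 with quantile normalization (acute against untreated), for Tmod1 and 4833419A21Rik with normexp (recovered against untreated), for 3 with an intensity trend, 12 without the filter and 8 on the first scan day. The median of all genes in acute against untreated cells was 0.02, but -0.12 after quantile normalization and -0.09 in the authors' values, and the higher share of calls was 48.9%, 39.4% and 37.3% in that order. In recovered against untreated cells that share was 52.2%, 39.9% and 38.9%, and in recovered against acute cells 71.7%, 60.7% and 49.8%. With 3 arrays a group, and 8 members not well above background on any tolerant array, small differences and the size of those falls were not measurable.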
